A study of Phyllostachys violascens with 16 samples.

Results

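The genes described here split sucrose, rebuild it, phosphorylate the hexoses that it yields or carry sugars across membranes in shoots of Lei bamboo (Phyllostachys violascens). They are the 209 of 50936 deposited genes whose description, the name of the best database hit, contains invertase, beta-fructofuranosidase, sucrose-phosphate synthase, sucrose-phosphatase, hexokinase, fructokinase, SWEET, sugar transport, sucrose transport or monosaccharide. Invertase inhibitors and sucrose synthases were left out of them. The 209 comprise 43 invertases, 9 sucrose-phosphate synthases, 1 sucrose-phosphatase, 13 hexokinases, 6 fructokinases, 4 fructokinase-like proteins, 37 SWEET carriers, 10 sucrose transporters, 45 sugar transport proteins of the STP/MST type, 10 ERD6-like carriers and 12 monosaccharide-sensing proteins. The letters of the rule also caught 17 phosphofructokinases, 1 UDP-sugar transporter and 1 gene named SWEETIE, which belong to none of these families. A description names the closest described protein, not a tested activity of the bamboo enzyme or carrier.

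Sucrose is the main form in which plants move carbon from organ to organ. Invertases cleave it into glucose and fructose, the acid forms in the vacuole or the cell wall and the alkaline/neutral forms in the cytosol, plastids and mitochondria. Hexokinases and fructokinases phosphorylate the products, while sucrose-phosphate synthase and sucrose-phosphatase make sucrose again. SWEET carriers let sugars pass down a gradient, sucrose transporters and STP proteins take sugars up together with protons, and ERD6-like and monosaccharide-sensing proteins are best known from the vacuole membrane of Arabidopsis.

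RNA came from the middle segment, 10 cm in length, of young spring shoots. Stored shoots lay in polyethylene bags at 4 °C in batches of 30, while shoots taken at 0 days had no storage. Each library pools 6 shoots, and there are 4 libraries for each of 4 groups: 0 days of storage (0d), 2 days (2d), 6 days (6d) and 20 days (20d). All groups are of the same species and organ, and the stored groups were kept in the same way. No shoots kept at another temperature were analysed here, so cold, time since harvest and packing cannot be told apart. A library held 51.7 to 64.9 M deposited counts (M, mega), with a correlation of 0.985 to 0.993 between libraries of a group and 0.499 to 0.899 between groups.

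Levels are given as FPKM, fragments per kilobase of gene and per mega of fragments in the library, which corrects for gene length and lets genes be compared with each other. Changes are log2 changes of the deposited counts, fitted with edgeR's quasi-likelihood test over the 24944 genes with a mean of at least 1 FPKM, and adjusted by Benjamini-Hochberg over all of them. A gene is said to have been called, to have risen or fallen only at an adjusted p below 0.05 with a log2 change of at least 1 in size. The fit used TMM factors. SE beside a log2 change is the size of that change divided by the square root of its F value. The test itself gives no standard error, so SE is an approximation. With plain total counts, the scale on which FPKM values stand, the median change of all tested genes was -0.25 at 2d, -0.21 at 6d and -0.30 at 20d, so printed log2 changes against 0d lie above the ratio of the FPKM values by about that amount. In these bulk libraries fewer cells of a type and less RNA per cell cannot be told apart.

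Of the 209 genes, 77 reached a mean of 1 FPKM and were tested, which is 36.8% against 48.97% of all 50936 genes. Another 72 had 0 counts in every library, 34.5% against 21.3% of all genes. The genes with no count were unevenly spread over the families. How reads shared between like copies were divided is not stated, so a lack of counts need not mean that a gene was silent. Among the 20 cell wall invertases 11 had no count, and 9 of those stand in a run of 10 such genes on scaffold 20, from 52751858 to 52839807. Of the sugar transport proteins 22 of 45 had no count, of the SWEET carriers 14 of 37, and of the cytosolic and vacuolar invertases 0. In all, 58 of the 209 lie within 100 kb of another of the same set, in 20 groups of neighbours, and 13 of those 58 were tested, against 64 of the 151 that stand alone.

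At 2d, 16 of the 77 tested genes had risen and 13 had fallen against 0d, 20.8% and 16.9%, where 13.1% and 18.1% of all tested genes had (37.7% in either direction, beside 31.1%). At 6d, 27 had risen and 11 had fallen, 35.1% and 14.3%, with 16.8% and 21.6% over all tested genes (49.4% in either direction, beside 38.4%). At 20d, 36 had risen and 9 had fallen, 46.8% and 11.7%, with 19.5% and 24.5% over all tested genes (58.4% in either direction, beside 44.0%). The median log2 change of the 77 was 0.037 at 2d, 0.44 at 6d and 0.85 at 20d, beside medians between -0.024 and 0.016 for all tested genes. These 3 comparisons share the 0d libraries. The filter on low levels shapes both the falls and the rises. With every gene that has a count in the fit, 137 members were tested, of which 28, 23 and 22 had fallen at 2d, 6d and 20d (20.4%, 16.8% and 16.1%), where 18.0%, 20.3% and 23.8% of all 40101 genes in that fit had. In the same fit 18, 36 and 42 members had risen (13.1%, 26.3% and 30.7%), where 11.8%, 15.4% and 17.2% of all genes had. Total-count scaling gave 15 risen and 16 fallen of the 77 at 2d (19.5% and 20.8%), with 9.35% and 23.1% of all tested genes. At 6d it gave 23 and 14 (29.9% and 18.2%), with 13% and 25.4%, and at 20d 29 and 12 (37.7% and 15.6%), with 13.9% and 30.7%.

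Successive stored times were compared as well. Between 6d and 2d, 19 members were higher and 7 lower at 6d, 24.7% and 9.09%, with 6.94% and 8.14% over all tested genes, where 15.1% were called in either direction. Between 20d and 6d, 17 were higher and 5 lower at 20d, 22.1% and 6.49%, with 12.7% and 14.2% over all tested genes, where 26.9% were called in either direction. Over all 4 times 59 of 77 passed the F test and the size limit between some pair of times, while 64.6% of all tested genes did. Of the 77, 33 had their highest mean at 20d and 23 at 0d, and 31 had their lowest at 2d (42.9%, 29.9% and 40.3%, where 22.7%, 43.2% and 25.0% of all tested genes had). Against 0d, 13 were higher at all 3 stored times and 4 were lower at all 3 (16.9% and 5.19%, beside 7.10% and 10.2% of all tested genes). Another 2 were lower at 2d but higher at 20d and 8 were higher at 20d alone (2.60% and 10.4%, beside 1.20% and 6.13%), while 21 passed at none (27.3%, beside 40.9%).

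**Figure D1:**
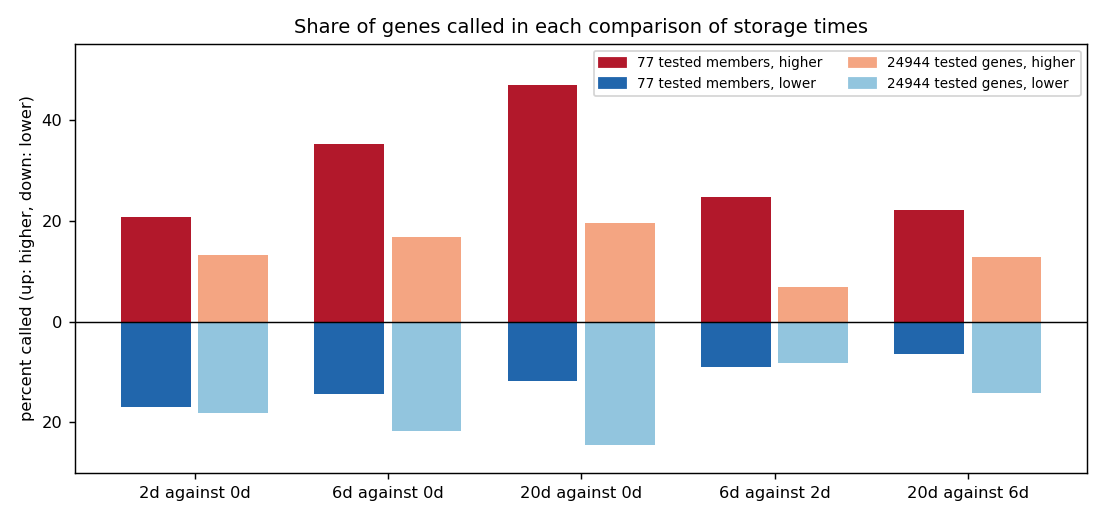
Share of genes called, in percent, in each comparison of storage times: the 77 tested members (dark bars) beside all 24944 tested genes (pale bars), with higher genes above the 0 line and lower genes below it. At 20d against 0d 46.8% of the members were higher, while 19.5% of all tested genes were.

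The make-up of the invertase transcripts changed with storage. Summed over all 43 invertase genes the level was 410.0 ± 8.09 at 0d, 205 ± 1.23 at 2d, 289 ± 5.85 at 6d and 307 ± 3.68 by 20d FPKM (SD, n = 4). The sum at 2d was 49.97% of that at 0d, and at 20d it was 74.97%. On the total-count scale of such sums, the median log2 change of all tested genes was itself -0.25 at 2d and -0.30 at 20d. Vacuolar genes made up 63.97 ± 1.401% of the sum at 0d, 13.1 ± 0.682% at 2d, 16.97 ± 1.04% at 6d and 42.1 ± 0.3799% by 20d. Cytosolic genes made up 10.1 ± 0.454%, 46.1 ± 1.19%, 36.6 ± 0.779% and 13.8 ± 0.239% at the same times. The share of the cell wall genes stayed between 11.9% and 14.2%. No test was run on these sums, which rest on a few strong genes.

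**Figure D2:**
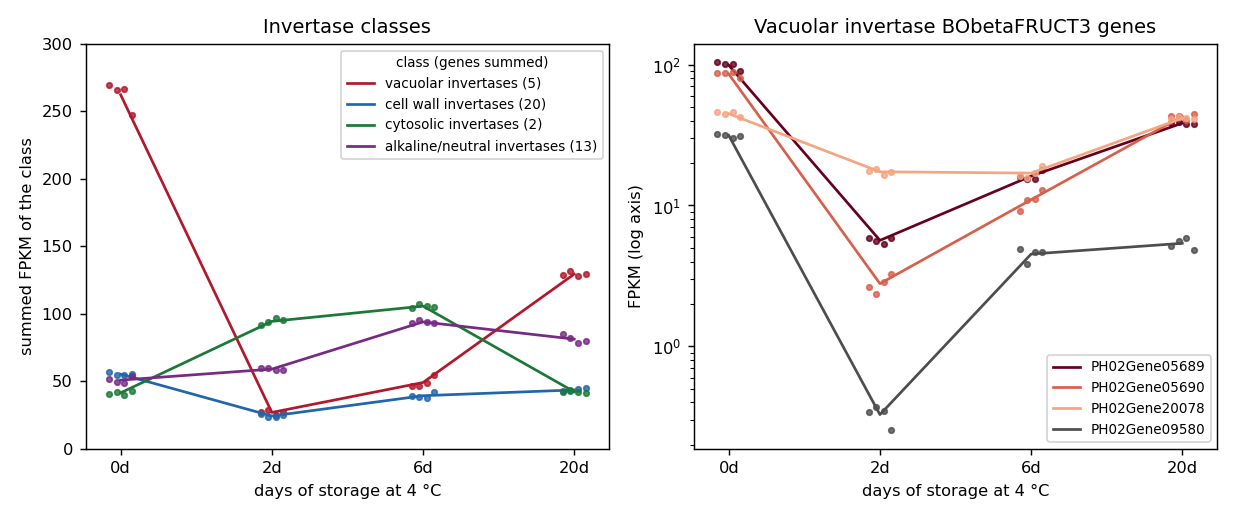
Left, summed FPKM of 4 invertase classes against days of storage, with 1 point per library and lines through the means of 4 libraries. Right, the 4 tested vacuolar invertase genes on a log axis of FPKM. Vacuolar invertases summed to 26.9 FPKM at 2d, against 262 FPKM at 0d, while the cytosolic genes summed to 94.4 FPKM at 2d, against 41.5 FPKM at 0d.

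All 4 tested vacuolar invertase genes fell by 2d and were still lower at 6d. Each of them has the description vacuolar invertase BObetaFRUCT3, after an enzyme of the bamboo Bambusa oldhamii, and such an acid enzyme splits sucrose stored in the vacuole. Summed over the 5 genes of the class, the level was 262 ± 10.3 at 0d, 26.9 ± 1.48 at 2d, 49.1 ± 3.95 at 6d and 129 ± 1.52 by 20d FPKM. The 5 genes have near-identical descriptions, and how reads shared between such copies were divided is not stated, so the split between them is uncertain while their sum is less so.

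The strongest gene, PH02Gene05689 (scaffold 20, 51950428 to 51956283, minus strand), had 104, 101, 100.5 and 90.9 at 0d, 5.86, 5.58, 5.32 and 5.84 at 2d, 16.04, 15.4, 15.5 and 17.9 at 6d, and 38.4, 39.5, 37.8 and 38.2 at 20d FPKM. Every stored library lay below every 0d library, and the 2d libraries were the lowest. It fell at each time against 0d: at 2d (log2 change -3.88, SE 0.051, edgeR adjusted p = 6.63e-27), at 6d (-2.44, SE 0.046) and at 20d (-1.05, SE 0.043). The call at 20d is near the limit: with every counted gene in the fit the change was -0.996, just short of it. Its neighbour PH02Gene05690 (scaffold 20, 51997820 to 52000141, minus strand) had 86.6, 87.5, 88.3 and 80.9 at 0d, 2.65, 2.36, 2.85 and 3.28 at 2d, 9.14, 10.9, 11.1 and 12.8 at 6d, and 43.1, 43.1, 40.7 and 44.7 at 20d FPKM. It shows the same low point at 2d and a higher level at 20d than at 6d, with no overlap between any groups. Its log2 change was -4.69 (SE 0.094) at 2d and -2.79 (SE 0.080) at 6d, both called, and -0.69 (SE 0.073) at 20d, within the size limit. On the scale of the FPKM means its fall at 20d lies about at that limit. From 6d to 20d it rose (log2 change 2.10, SE 0.080, edgeR adjusted p = 1.42e-13).

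PH02Gene09580 (scaffold 8) showed the deepest fall of the class, with 32.4, 31.8, 30.3 and 31.2 at 0d, 0.339, 0.371, 0.345 and 0.253 at 2d, 4.95, 3.83, 4.65 and 4.64 at 6d, and 5.18, 5.62, 5.91 and 4.84 at 20d FPKM. All 4 libraries at 2d lay below 0.4 FPKM, and it stayed below 6 FPKM afterwards. Its log2 change against 0d was -6.32 at 2d (SE 0.10, edgeR adjusted p = 2.28e-25), -2.62 at 6d (SE 0.077) and -2.23 at 20d (SE 0.076). PH02Gene20078 (scaffold 14) lost less and regained more, with 45.9, 44.9, 46.1 and 42.6 at 0d, 17.6, 18.2, 16.4 and 17.2 at 2d, 16.2, 15.6, 17.1 and 19.03 at 6d, and 41.3, 42.4, 41.9 and 41.0 at 20d FPKM. It fell at 2d (-1.12, SE 0.047) and 6d (-1.23, SE 0.047), and at 20d its change against 0d was 0.21 (SE 0.046). Between 20d and 6d PH02Gene20078 and PH02Gene05689 rose by close amounts, 1.43 and 1.39 on the log2 scale, whereas PH02Gene09580 changed by 0.39 (SE 0.077) and did not reach the size limit. The fifth gene of the class, PH02Gene20090, stayed under a mean of 1 FPKM and was not tested.

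Cytosolic invertase 1, which belongs to the alkaline/neutral type in other plants, went the other way through 6d. PH02Gene31027 (scaffold 17, 45079810 to 45088248, minus strand) had 26.1, 26.2, 25.1 and 26.9 at 0d, 70.7, 69.5, 72.9 and 72.7 at 2d, 81.9, 84.5, 82.0 and 81.1 at 6d, and 33.1, 34.2, 33.4 and 32.1 at 20d FPKM. The 2d and 6d libraries lay far above those of 0d and 20d. PH02Gene31027 rose at 2d (log2 change 1.70, SE 0.028, edgeR adjusted p = 2.05e-25) and was also higher at 6d (log2 change 1.83, SE 0.028). At 20d it had fallen again relative to 6d (log2 change -1.17, SE 0.028, edgeR adjusted p = 4.91e-22) and stood 0.66 (SE 0.028) from 0d. The second gene of that name, PH02Gene30661, averaged 15.4 ± 0.601 at 0d, 23.0 ± 1.61 at 2d, 23.3 ± 1.06 at 6d and 9.06 ± 0.260 by 20d FPKM (SD, n = 4). Its changes against 0d of 0.83 at 2d and 0.78 at 6d did not reach the size limit. Its fall at 20d against 6d did (log2 change -1.23, SE 0.052, edgeR adjusted p = 8.48e-17).

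The other alkaline/neutral invertases rose more often than they fell. Of 9 tested, 2 rose and 1 fell at 2d, 5 rose and 0 fell at 6d, and 4 rose and 0 fell at 20d. Summed over all 13 genes the level was 50.9 ± 2.45 at 0d, 59.1 ± 0.782 at 2d, 94.0 ± 1.24 at 6d and 81.3 ± 2.79 by 20d FPKM. Alkaline/neutral invertase F, PH02Gene10514, had 5.26, 5.81, 5.10 and 6.35 at 0d, 13.1, 13.6, 12.1 and 13.5 at 2d, 27.9, 29.7, 28.0 and 28.8 at 6d, and 11.7, 11.54, 10.4 and 10.7 at 20d FPKM. Its 6d libraries stood above all others, and every stored library lay above every 0d library. It rose at 2d (log2 change 1.46, SE 0.064) and 6d (2.52, SE 0.064, edgeR adjusted p = 1.03e-21), and its change of 1.29 at 20d drops to 0.98 with total-count scaling. From 6d to 20d it fell (-1.23, SE 0.060). The gene of this class that fell at 2d was the weak PH02Gene05233, which averaged 1.04 ± 0.162 at 0d, 0.227 ± 0.0795 at 2d, 1.08 ± 0.132 at 6d and 2.77 ± 0.184 by 20d FPKM, fell at 2d (log2 change -1.95, SE 0.22, edgeR adjusted p = 1.80e-08) and rose at 20d (1.72, SE 0.20).

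Neutral/alkaline invertase 1, a mitochondrial form, is represented by a pair of strong genes that differed. PH02Gene08042 averaged 6.05 ± 0.383 at 0d, 12.4 ± 0.352 at 2d, 13.7 ± 0.926 at 6d and 20.8 ± 0.512 by 20d FPKM and rose at every stored time, by 1.28, 1.35 and 2.10 on the log2 scale at 2d, 6d and 20d (edgeR adjusted p = 1.75e-21 at 20d). PH02Gene19699 averaged 17.9 ± 1.22 at 0d, 14.7 ± 0.624 at 2d, 15.97 ± 0.637 at 6d and 19.4 ± 0.707 by 20d FPKM and passed in none of the comparisons. A plastid form, neutral/alkaline invertase 3 (PH02Gene06174), averaged 8.55 ± 0.742 at 0d, 7.58 ± 0.359 at 2d, 15.9 ± 0.660 at 6d and 12.1 ± 1.11 by 20d FPKM. It rose at 6d (log2 change 1.07, SE 0.067, edgeR adjusted p = 1.52e-13), a call that ends with total-count scaling (0.89) and with upper-quartile factors (0.99). PH02Gene21855 and PH02Gene21856, of the same description, follow each other on scaffold 19 from 29929189 to 29934770. PH02Gene21856 rose at 6d (1.22, SE 0.17), while its change of 1.02 at 20d is called only with some settings and falls to 0.96 without replicate 3 of 0d, and to 0.99 without replicate 4 of 0d or replicate 2 of 20d. PH02Gene21855 changed by 0.93 (SE 0.19) at 6d and did not pass.

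Cell wall invertases, which split sucrose outside the cell, had 4 tested genes of 20, and the class summed to 55.3 ± 0.998 at 0d, 24.3 ± 1.11 at 2d, 39.3 ± 2.14 at 6d and 43.6 ± 1.03 by 20d FPKM. Most of that sum is PH02Gene26446 (cell wall invertase BObetaFRUCT2, scaffold 17, 47666848 to 47671904, minus strand), with 41.1, 40.3, 40.8 and 40.4 at 0d, 16.01, 14.6, 14.2 and 15.3 at 2d, 28.2, 25.9, 24.5 and 27.9 at 6d, and 39.3, 39.2, 39.7 and 41.3 at 20d FPKM. The 2d libraries were the lowest, and those of 20d overlap with 0d. It fell at 2d (log2 change -1.19, SE 0.043, edgeR adjusted p = 2.83e-18), and its change was -0.44 (SE 0.042) at 6d and 0.29 (SE 0.041) at 20d.

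A pair of weaker cell wall genes named BObetaFRUCT1 was nearly or fully lost at 20d. PH02Gene16852 (scaffold 24) had 6.55, 4.83, 5.98 and 5.80 at 0d, 2.87, 2.33, 2.31 and 2.44 at 2d, 2.94, 3.204, 3.32 and 3.69 at 6d, and 0, 0, 0 and 0 at 20d FPKM. With 0 counts in all 4 libraries at 20d, against a floor of 3 fragments over the group, its level was at least 216-fold lower at 20d than at 0d and at least 139-fold lower than at 6d. PH02Gene06193 (scaffold 23) had 5.05, 5.10, 4.29 and 5.03 at 0d, 1.91, 1.75, 1.57 and 2.15 at 2d, 3.5002, 3.94, 3.90 and 4.51 at 6d, and 0.214, 0.225, 0.138 and 0.0297 at 20d FPKM. Its 20d libraries lay far under all others, and it fell at 20d (log2 change -4.66, SE 0.26, edgeR adjusted p = 7.47e-13) as well as at 2d (-1.15, SE 0.20). Its rise from 2d to 6d (1.03, SE 0.20) is not called without 2d replicate 3 or 6d replicate 4, where it comes to 0.96. The fourth gene, PH02Gene06876, averaged 2.999 ± 0.203 at 0d, 4.66 ± 0.221 at 2d, 4.15 ± 0.511 at 6d and 3.42 ± 0.413 by 20d FPKM and passed against 0d at none of the times.

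Beta-fructofuranosidase 1, PH02Gene09732, whose description names no place in the cell, was strong at 20d alone. It had 0, 0, 0 and 0.0391 at 0d, 0.0754, 0.156, 0 and 0.0842 at 2d, 0.241, 0.244, 0.193 and 0.409 at 6d, and 10.6, 10.3, 9.32 and 9.65 at 20d FPKM. Every 20d library stood above 9 FPKM and every earlier library under 0.5 FPKM. The 0d group held about 2 fragments in all, all of them in replicate 4, so the ratio of 20d to 0d is 1243 with a 95% interval of 258 to 7703 that covers counting error only. The ratios at 2d and 6d, 9.49 (1.55 to 66.1) and 31.8 (6.11 to 201), rest on few fragments too. The fitted log2 changes at 2d, 6d and 20d, 3.14, 4.85 and 10.15, become 6.61, 8.33 and 13.62 without 0d replicate 4, where 0d is left at 0 and such values are no bound. Under limma the change at 2d is not called, with 0.094 and 0.64 at pseudocounts of 1 and 0.1, nor is that at 6d with a pseudocount of 1 (0.33). The rise from 6d to 20d came to 5.30 on the log2 scale (SE 0.40, edgeR adjusted p = 1.68e-08). PH02Gene09732 passed the filter of 1 FPKM only through its 20d libraries, so this p-value is no separate support for the rise.

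Sucrose resynthesis genes rose late. Of 5 tested sucrose-phosphate synthases, 0 rose at 2d, 3 rose at 6d and 3 rose at 20d, and none of the 5 fell at these times. Summed over 9 genes the level was 63.5 ± 1.13 at 0d, 65.9 ± 1.47 at 2d, 114 ± 2.16 at 6d and 187 ± 4.02 by 20d FPKM, so the sum at 20d was 294% of that at 0d, while the groups 2d and 0d overlap. Sucrose-phosphate synthase makes sucrose-6-phosphate from UDP-glucose and fructose-6-phosphate.

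PH02Gene11187, sucrose-phosphate synthase 3 (scaffold 8, 64481625 to 64499399, minus strand), carried most of the gain, with 11.1, 11.55, 10.7 and 12.01 at 0d, 18.2, 15.4, 17.9 and 17.8 at 2d, 34.4, 34.3, 33.6 and 33.0 at 6d, and 93.6, 89.5, 90.7 and 94.2 at 20d FPKM. The groups do not overlap and stand in the order of storage time. It rose at 6d (log2 change 1.75, SE 0.043, edgeR adjusted p = 4.38e-20) and further at 20d (log2 change against 0d 3.34, SE 0.045, and against 6d 1.58, SE 0.041), with 0.87 (SE 0.044) at 2d. PH02Gene30638, sucrose-phosphate synthase 5, had 1.37, 1.09, 1.38 and 1.20 at 0d, 1.77, 2.37, 1.58 and 1.68 at 2d, 2.77, 2.12, 2.96 and 2.64 at 6d, and 22.8, 23.4, 21.6 and 23.1 at 20d FPKM. Its jump falls between 6d and 20d (log2 change 3.25, SE 0.11, edgeR adjusted p = 1.46e-14), and all 4 libraries at 20d lie above 21 FPKM. PH02Gene13886, a second gene named synthase 3, averaged 9.13 ± 0.157 at 0d, 9.60 ± 0.309 at 2d, 17.3 ± 0.970 at 6d and 21.7 ± 0.768 by 20d FPKM and rose at 20d (1.57, SE 0.042), whereas its rise at 6d (1.10) comes to 0.92 with total counts. The pair named synthase 2, PH02Gene40324 and PH02Gene04786, was the strongest at 0d with 21.3 ± 0.711 and 19.7 ± 0.678 FPKM. Their changes against 0d stayed within the size limit, with PH02Gene40324 at 0.83 at 6d and 0.36 at 20d and PH02Gene04786 at 0.60 and 0.83.

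The single sucrose-phosphatase gene, PH02Gene17386, takes the phosphate off sucrose-6-phosphate. It had 1.78, 1.86, 1.95 and 2.12 at 0d, 2.09, 1.96, 1.84 and 1.88 at 2d, 2.09, 1.73, 2.06 and 1.81 at 6d, and 4.01, 4.10, 4.51 and 4.09 at 20d FPKM. The 3 earlier groups overlap with each other and all 20d libraries lie above them. It rose at 20d (log2 change 1.43, SE 0.11, edgeR adjusted p = 8.84e-12), and its changes at 2d and 6d were 0.26 and 0.17. At 20d its level was thus 4.18 FPKM beside a summed 187 FPKM of the synthases.

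**Figure D3:**
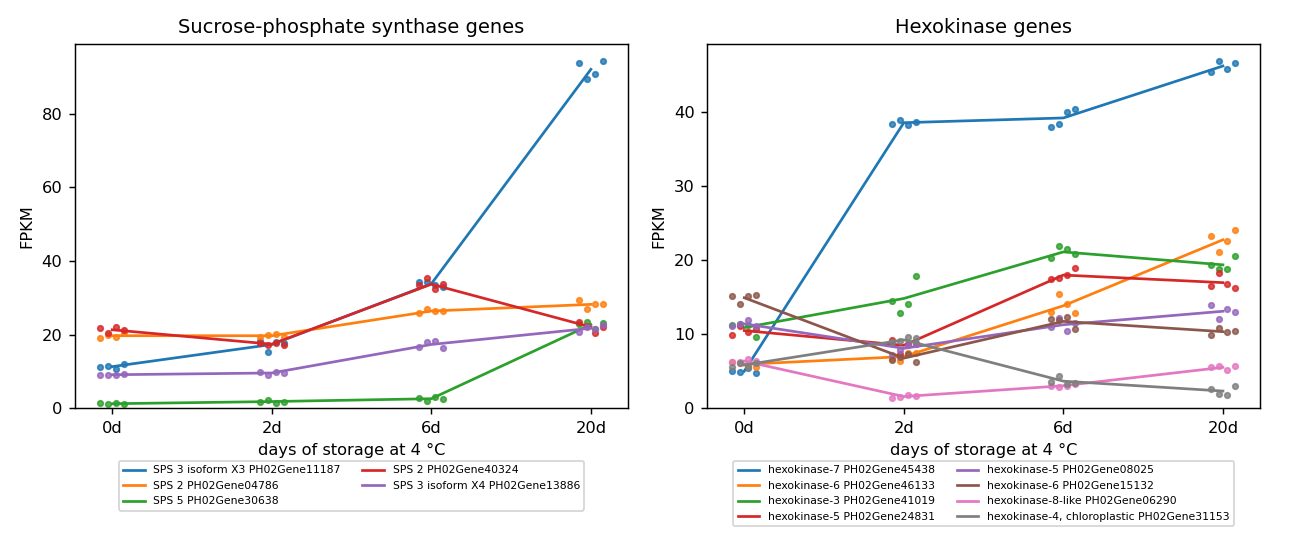
FPKM of the 5 tested sucrose-phosphate synthase (SPS) genes (left) and the 8 tested hexokinase genes (right) against days of storage, with 1 point per library and lines through the means of 4 libraries. PH02Gene11187 reached 92.03 FPKM at 20d, against 11.3 FPKM at 0d, and hexokinase-7 PH02Gene45438 reached 38.5 FPKM at 2d, against 5.02 FPKM at 0d.

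Hexokinases phosphorylate glucose and other hexoses, and some of them also act as glucose sensors in Arabidopsis and rice. Of 8 tested, 1 rose and 1 fell at 2d, 3 rose and 0 fell at 6d, and 4 rose and 1 fell at 20d. Summed over 13 genes the level was 70.9 ± 1.05 at 0d, 94.5 ± 3.54 at 2d, 122 ± 2.70 at 6d and 137 ± 2.16 by 20d FPKM. The order of the genes changed with storage, as hexokinase-7 passed all the others.

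PH02Gene45438, hexokinase-7 (scaffold 9, 11910255 to 11913557, minus strand), had 5.01, 4.85, 5.38 and 4.83 at 0d, 38.4, 39.0, 38.2 and 38.6 at 2d, 38.0, 38.4, 39.9 and 40.4 at 6d, and 45.4, 46.9, 45.8 and 46.6 at 20d FPKM. Every stored library held at least 38 FPKM and every 0d library under 6 FPKM. It rose at 2d (log2 change 3.19, SE 0.039, edgeR adjusted p = 4.53e-28), and its changes at 6d and 20d were 3.14 and 3.51, so most of the step had been reached at 2d. Hexokinase-3 (PH02Gene41019) averaged 10.9 ± 0.813 at 0d, 14.8 ± 2.17 at 2d, 21.1 ± 0.720 at 6d and 19.4 ± 0.815 by 20d FPKM and rose at 6d (1.13, SE 0.075) and 20d (1.14, SE 0.075), calls that end with total counts at 0.94 and 0.83. Hexokinase-6 (PH02Gene46133) averaged 5.93 ± 0.306 at 0d, 6.98 ± 0.524 at 2d, 13.8 ± 1.17 at 6d and 22.7 ± 1.23 by 20d FPKM and rose at 6d (1.40) and 20d (2.25, SE 0.070, edgeR adjusted p = 4.78e-20).

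Other hexokinases were lower for a time. Hexokinase-8-like (PH02Gene06290) had 1.36, 1.51, 1.82 and 1.69 at 2d, against 6.24, 6.31, 6.60 and 6.35 at 0d FPKM and fell at 2d (log2 change -1.74, SE 0.096, edgeR adjusted p = 1.45e-14). It averaged 5.53 ± 0.256 FPKM at 20d, a change of 0.11 (SE 0.090) against 0d. The second hexokinase-6 gene, PH02Gene15132, averaged 14.9 ± 0.595 at 0d, 6.77 ± 0.453 at 2d, 11.7 ± 0.707 at 6d and 10.3 ± 0.384 by 20d FPKM and passed at none of the times, with a change of -0.89 at 2d. On the scale of the FPKM means that fall at 2d exceeds the size limit. Hexokinase-4, a plastid form (PH02Gene31153), averaged 5.85 ± 0.251 at 0d, 9.24 ± 0.300 at 2d, 3.67 ± 0.445 at 6d and 2.34 ± 0.564 by 20d FPKM. Its fall at 6d against 2d (log2 change -1.41, SE 0.12, edgeR adjusted p = 1.39e-10) is called, and its fall at 20d against 0d (-1.01) is borderline: it is -0.96 with every counted gene in the fit and between -0.901 and -0.998 without replicate 2 or 4 of 0d, or without replicate 2 or 3 of 20d. The change of hexokinase-5 (PH02Gene24831) at 20d (1.01) is also borderline, being 0.69 with total counts and 0.971 to 0.998 without replicate 1 or 3 of 0d, or without replicate 2 of 20d.

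Fructokinases, which phosphorylate fructose, stood lower at every stored time in their summed FPKM. At 2d no tested gene of the family was called, and on the total-count scale the median log2 change of all tested genes was -0.25. Summed over 6 genes the level was 46.2 ± 1.41 at 0d, 36.4 ± 1.79 at 2d, 26.8 ± 0.521 at 6d and 17.6 ± 1.24 by 20d FPKM, so the sum at 20d was 38.1% of that at 0d. PH02Gene07937, fructokinase-6, a plastid form, had 21.1, 19.2, 21.2 and 22.0 at 0d, 15.3, 17.0, 15.2 and 16.1 at 2d, 8.94, 7.90, 8.04 and 7.87 at 6d, and 5.37, 5.01, 4.76 and 4.56 at 20d FPKM. The groups do not overlap and stand in falling order. It fell at 6d (log2 change -1.18, SE 0.066, edgeR adjusted p = 1.58e-14) and 20d (-1.77, SE 0.068). Its fall from 2d to 6d (-1.03) ends with total counts at -0.97 and without 2d replicate 2 at -0.999. PH02Gene23422, fructokinase 1, averaged 25.3 ± 1.26 at 0d, 20.5 ± 1.05 at 2d, 18.6 ± 0.635 at 6d and 12.7 ± 1.55 by 20d FPKM, and its change of -0.68 (SE 0.072) at 20d did not reach the size limit. On the scale of the FPKM means its fall at 20d lies about at that limit. The fructokinase-like protein 2 (PH02Gene10480), a plastid protein related to fructokinases, rose at 20d (log2 change 1.49, SE 0.34, edgeR adjusted p = 2.66e-04) at a low level of 3.36 ± 0.357 FPKM at 20d and 1.46 ± 0.388 FPKM at 0d.

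The phosphofructokinases, glycolytic enzymes that act on fructose-6-phosphate, entered through the letters fructokinase. Of 9 tested, 1 rose and 1 fell at 2d, 0 rose and 1 fell at 6d, and 4 rose and 1 fell at 20d. The strongest, PH02Gene24841, averaged 31.7 ± 0.436 at 0d, 59.1 ± 2.84 at 2d, 51.5 ± 1.54 at 6d and 58.3 ± 1.31 by 20d FPKM and rose at 2d (1.15) and 20d (1.19), which total-count scaling takes to 0.90 and 0.88. PH02Gene04006 averaged 25.1 ± 1.37 at 0d, 19.2 ± 1.04 at 2d, 21.1 ± 1.54 at 6d and 30.4 ± 0.908 by 20d FPKM and passed at none of the times. The UDP-sugar transporter gene PH02Gene42799 changed by 0.79, 0.87 and 0.98 at 2d, 6d and 20d, under the size limit each time.

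SWEET carriers divided into genes that rose and genes that fell. Of 11 tested SWEET genes 5 rose and 3 fell at 2d, 5 rose and 3 fell at 6d, and 7 rose and 1 fell at 20d. The SWEETIE gene PH02Gene27313, which is no carrier of this family, was tested and passed at none of these times. Summed over the 37 carriers the level was 178 ± 4.77 at 0d, 301 ± 6.89 at 2d, 209.6 ± 11.7 at 6d and 340.4 ± 1.68 by 20d FPKM. No group of libraries overlapped with 0d in that sum.

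**Figure D4:**
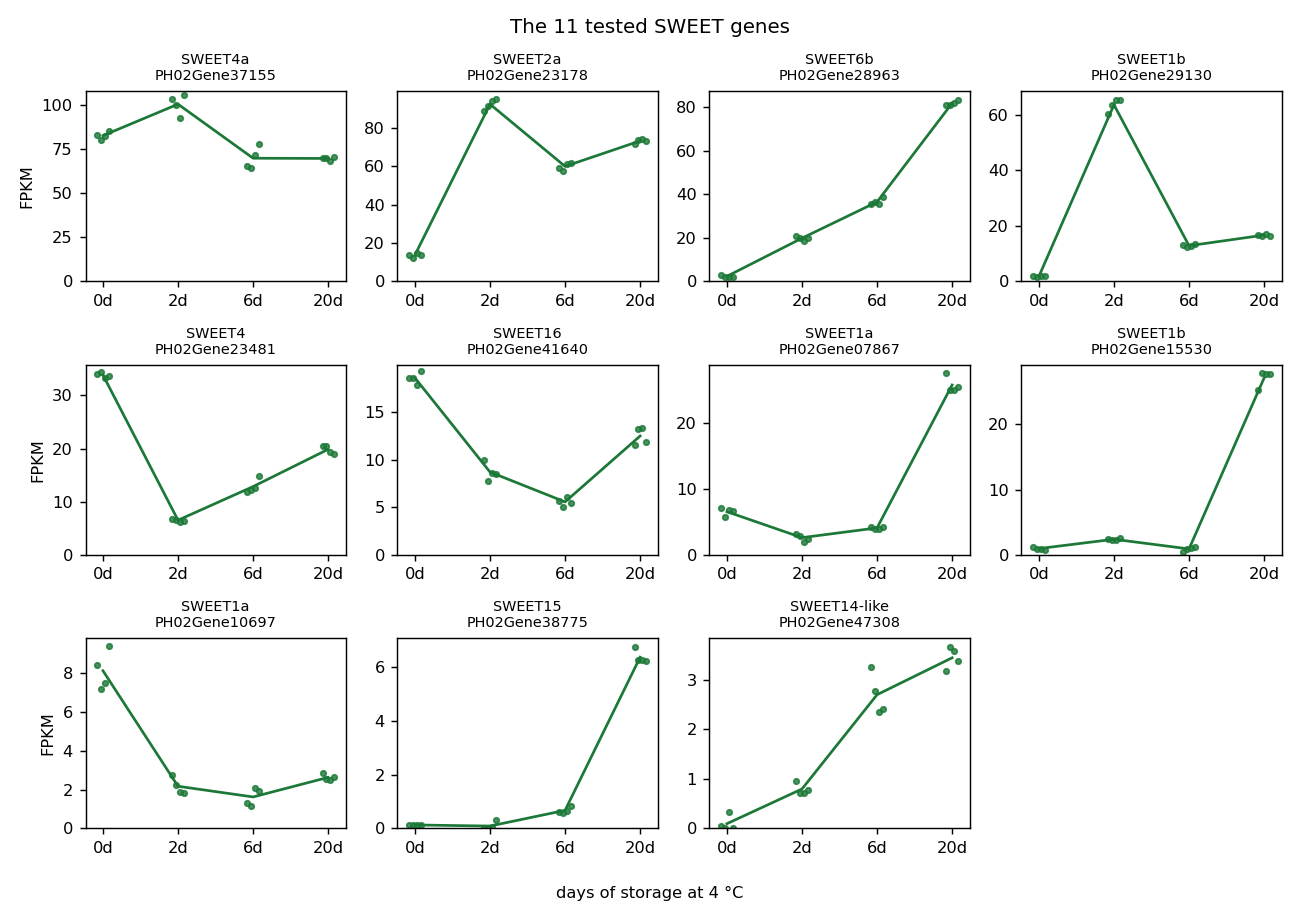
FPKM of the 11 tested SWEET genes against days of storage, 1 panel per gene with its own axis from 0, 1 point per library and lines through the means of 4 libraries. SWEET1b PH02Gene29130 peaked at 2d with 63.6 FPKM, and SWEET6b PH02Gene28963 reached 81.9 FPKM at 20d, against 2.23 FPKM at 0d.

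SWEET2a, whose Arabidopsis relative SWEET2 sits in the vacuole membrane, rose early and stayed high. PH02Gene23178 (scaffold 14, 30215231 to 30217675, plus strand) had 13.9, 12.2, 14.8 and 13.8 at 0d, 88.8, 91.6, 94.2 and 95.2 at 2d, 59.3, 57.7, 61.1 and 61.6 at 6d, and 71.7, 73.9, 74.3 and 73.1 at 20d FPKM. Every stored library lay above 57 FPKM and every 0d library under 15 FPKM. It rose at 2d (log2 change 3.01, SE 0.043, edgeR adjusted p = 1.01e-26) and was 2.31 and 2.73 above 0d on the log2 scale at 6d and 20d.

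SWEET6b (PH02Gene28963, scaffold 16) had 2.63, 2.12, 2.10 and 2.08 at 0d, 20.9, 19.9, 18.3 and 20.0 at 2d, 35.3, 36.2, 35.4 and 38.9 at 6d, and 80.9, 81.1, 82.2 and 83.5 at 20d FPKM. The groups do not overlap and stand in the order of storage time. SWEET6b rose at 2d (log2 change 3.39, SE 0.064, edgeR adjusted p = 2.85e-24), at 6d (4.20, SE 0.063) and at 20d (5.50, SE 0.063), and also from 6d to 20d (1.31, SE 0.048).

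The pair named SWEET1b peaked at different times. PH02Gene29130 (scaffold 7) had 1.91, 1.33, 1.72 and 1.97 at 0d, 60.4, 63.4, 65.4 and 65.2 at 2d, 12.9, 12.2, 12.8 and 13.3 at 6d, and 16.7, 16.4, 17.0 and 16.4 at 20d FPKM. It peaked at 2d (log2 change 5.44, SE 0.070, edgeR adjusted p = 1.54e-27), fell from 2d to 6d (-2.39, SE 0.057) and stayed above 0d at 20d (3.57, SE 0.070). PH02Gene15530 (scaffold 9) had 1.26, 0.857, 0.907 and 0.813 at 0d, 2.47, 2.29, 2.23 and 2.54 at 2d, 0.404, 0.894, 1.09 and 1.23 at 6d, and 25.3, 27.8, 27.7 and 27.7 at 20d FPKM. Its libraries at 20d stood far above all earlier ones, with a rise at 20d against 6d (log2 change 5.02, SE 0.19, edgeR adjusted p = 1.07e-14), and it also rose at 2d against 0d (1.55, SE 0.19, but 0.79 under limma on log2(FPKM + 1)). At 6d it was 0.10 (SE 0.21) from 0d.

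The SWEET1a pair also parted. PH02Gene07867 averaged 6.53 ± 0.569 at 0d, 2.60 ± 0.531 at 2d, 4.07 ± 0.205 at 6d and 25.7 ± 1.23 by 20d FPKM and rose at 20d (log2 change 2.29, SE 0.10, edgeR adjusted p = 1.14e-16). Its fall at 2d (-1.08, SE 0.11) is not called without 2d replicate 3, where it is -0.96. PH02Gene10697 averaged 8.10 ± 0.985 at 0d, 2.17 ± 0.428 at 2d, 1.62 ± 0.451 at 6d and 2.62 ± 0.170 by 20d FPKM and fell at all 3 times, with log2 changes of -1.65, -2.14 and -1.31 at 2d, 6d and 20d (edgeR adjusted p = 2.63e-07 at 20d). It was the 1 SWEET gene lower at 20d than at 0d by the limits used.

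The SWEET4 genes differed as well. PH02Gene23481, SWEET4, had 33.9, 34.4, 33.3 and 33.7 at 0d, 6.82, 6.54, 6.24 and 6.45 at 2d, 11.7, 12.2, 12.5 and 14.9 at 6d, and 20.6, 20.5, 19.4 and 18.96 at 20d FPKM. It fell at 2d (log2 change -2.13, SE 0.063, edgeR adjusted p = 3.58e-20) and was still lower at 6d (-1.22, SE 0.060), and at 20d its change was -0.46 (SE 0.058). PH02Gene37155, SWEET4a, the most abundant SWEET gene at 0d and over all libraries, averaged 82.6 ± 1.95 at 0d, 100.4 ± 5.74 at 2d, 69.8 ± 6.34 at 6d and 69.6 ± 0.965 by 20d FPKM and passed in none of the comparisons. SWEET16, a vacuolar carrier in Arabidopsis (PH02Gene41640), averaged 18.6 ± 0.578 at 0d, 8.69 ± 0.927 at 2d, 5.55 ± 0.425 at 6d and 12.5 ± 0.965 by 20d FPKM, fell at 6d (-1.56, SE 0.081) and was higher at 20d than at 6d (1.30, SE 0.082).

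A pair of SWEET genes that were almost silent at 0d rose in storage. SWEET15 (PH02Gene38775), known from ageing leaves of Arabidopsis, had 0.145, 0.136, 0.118 and 0.125 at 0d, 0, 0, 0.0403 and 0.319 at 2d, 0.625, 0.593, 0.649 and 0.831 at 6d, and 6.75, 6.27, 6.26 and 6.25 at 20d FPKM. It stood above 6 FPKM in every 20d library alone, and rose at 20d (log2 change 5.87, SE 0.58, edgeR adjusted p = 1.88e-07). SWEET15 passed the filter of 1 FPKM only through its 20d libraries, so this p-value is no separate support for the rise. Its change at 6d against 2d (2.80) is 5.23 without 2d replicate 4, the 2d library with most counts of the gene. SWEET14-like (PH02Gene47308), named after a sucrose carrier of rice, had 0.0538, 0, 0.332 and 0 at 0d, 0.965, 0.725, 0.714 and 0.787 at 2d, 3.27, 2.77, 2.36 and 2.41 at 6d, and 3.17, 3.66, 3.58 and 3.38 at 20d FPKM. It rose at 2d (3.18, SE 0.64), 6d (4.86, SE 0.63) and 20d (5.35, SE 0.63). Without 0d replicate 3, which held most of its 0d counts, these become 5.40, 7.08 and 7.57.

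Sucrose transporters, which move sucrose together with protons, stood lower in storage. Of 10 genes, 2 were tested and 1 of them fell at 2d, and the class summed to 37.9 ± 0.642 at 0d, 18.6 ± 0.671 at 2d, 19.3 ± 1.10 at 6d and 25.0 ± 0.695 by 20d FPKM. PH02Gene43292 (scaffold 12, 50201894 to 50209935, plus strand), named SUT2, had 31.4, 32.1, 30.5 and 30.6 at 0d, 12.3, 12.9, 12.3 and 12.9 at 2d, 15.1, 16.4, 14.2 and 16.5 at 6d, and 20.9, 21.2, 21.6 and 21.1 at 20d FPKM. Its 2d libraries were the lowest and none of the stored groups overlaps with 0d. It fell at 2d (log2 change -1.06, SE 0.046, edgeR adjusted p = 1.15e-16), which becomes -0.99 with every counted gene in the fit, and changed by -0.83 and -0.24 at 6d and 20d. PH02Gene43118, also named SUT2, averaged 6.09 ± 0.256 at 0d, 4.93 ± 0.219 at 2d, 2.94 ± 0.306 at 6d and 2.58 ± 0.355 by 20d FPKM, with changes of -0.87 at 6d and -0.93 at 20d (SE 0.11), both under the size limit. On the scale of the FPKM means both of these falls exceed that limit.

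Among the STP/MST proteins, which take up hexoses at the plasma membrane, gains prevailed. Of 9 tested genes 4 rose and 0 fell at 2d, and 7 rose and 1 fell at 6d and again at 20d. Summed over 45 genes the level was 44.4 ± 1.99 at 0d, 78.6 ± 1.75 at 2d, 78.9 ± 5.73 at 6d and 96.4 ± 2.64 by 20d FPKM. PH02Gene21286, MST2 (scaffold 15, 22044276 to 22047033, minus strand), had 10.5, 10.00, 10.7 and 11.01 at 0d, 41.0, 43.9, 41.5 and 41.6 at 2d, 31.7, 28.7, 32.3 and 35.3 at 6d, and 21.1, 23.2, 21.9 and 21.1 at 20d FPKM. It was highest at 2d and every stored library exceeded every 0d library. MST2 rose at 2d (log2 change 2.24, SE 0.053, edgeR adjusted p = 3.98e-22), 6d (1.78) and 20d (1.36). Its neighbour on scaffold 15, PH02Gene21285, named sugar transport protein 10, averaged 0.315 ± 0.160 at 0d, 3.27 ± 0.624 at 2d, 1.52 ± 0.653 at 6d and 1.17 ± 0.318 by 20d FPKM and was also highest at 2d (3.58, SE 0.37).

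Of the 9 tested STP/MST genes, 6 had their highest mean at 20d. PH02Gene37329, sugar transport protein 1, had 0.0757, 0, 0.0444 and 0.0597 at 0d, 1.60, 1.26, 1.06 and 1.27 at 2d, 5.07, 5.17, 5.16 and 5.54 at 6d, and 8.48, 7.85, 8.62 and 9.48 at 20d FPKM, with no overlap between groups. It rose by 4.92 at 2d (SE 0.26), 6.85 at 6d (SE 0.24) and 7.71 at 20d (SE 0.24, edgeR adjusted p = 8.53e-19). Its 0d level was near 0, and over the alternative settings the change at 2d ran from 1.13 to 5.25. The changes at 6d and 20d ran from 2.58 to 7.19 and from 3.20 to 8.04. MST3-like (PH02Gene39407) averaged 2.59 ± 0.136 at 0d, 2.46 ± 0.425 at 2d, 6.91 ± 0.607 at 6d and 11.7 ± 1.05 by 20d FPKM and rose at 6d (1.59) and 20d (2.48). A second such gene, MST3 (PH02Gene41381), averaged 0.499 ± 0.121 at 0d, 0.427 ± 0.111 at 2d, 1.87 ± 0.183 at 6d and 2.49 ± 0.400 by 20d FPKM and rose at both times too (2.07 and 2.63). MST1 (PH02Gene43051) averaged 1.80 ± 0.344 at 0d, 2.02 ± 0.289 at 2d, 3.64 ± 0.471 at 6d and 10.99 ± 0.704 by 20d FPKM and rose at 6d (1.19, but 0.99 under limma on log2(FPKM + 0.1)) and 20d (2.92, SE 0.13). Sugar transport protein 14 (PH02Gene28785) averaged 0.678 ± 0.0860 at 0d, 1.58 ± 0.211 at 2d, 3.10 ± 0.150 at 6d and 5.88 ± 0.182 by 20d FPKM and rose at each stored time, with 3.42 at 20d. Sugar transport protein 7 (PH02Gene28793) was the gene that fell, to 0.442 ± 0.0980 FPKM at 20d, against 2.84 ± 0.103 FPKM at 0d (log2 change -2.36, SE 0.19, edgeR adjusted p = 1.61e-11). Sugar transport protein 5-like (PH02Gene02194) averaged 21.8 ± 1.41 at 0d, 22.6 ± 0.622 at 2d, 21.4 ± 1.58 at 6d and 31.7 ± 0.792 by 20d FPKM and did not reach the size limit.

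ERD6-like carriers, which export glucose from the vacuole in Arabidopsis, had their highest sum at 20d, while single genes rose earlier. Of 4 tested, all described as ERD6-like 4, 1 rose at 2d, 2 rose and 1 fell at 6d, and 3 rose at 20d. Summed over 10 genes the level was 61.5 ± 1.03 at 0d, 45.7 ± 2.42 at 2d, 85.7 ± 1.36 at 6d and 135 ± 2.73 by 20d FPKM. PH02Gene27039 (scaffold 7, 49728998 to 49734646, minus strand) had 41.5, 40.4, 40.2 and 42.0 at 0d, 20.7, 23.2, 24.2 and 22.4 at 2d, 43.3, 42.3, 42.3 and 43.3 at 6d, and 84.9, 85.2, 85.3 and 82.998 at 20d FPKM. Its 20d libraries were the highest, and at 2d it was lower than at 0d by less than the size limit (-0.61, SE 0.036). It rose at 20d (log2 change 1.36, SE 0.035, edgeR adjusted p = 9.43e-22). PH02Gene25509 averaged 11.2 ± 0.470 at 0d, 15.9 ± 0.818 at 2d, 34.3 ± 1.26 at 6d and 37.0 ± 1.59 by 20d FPKM and rose at 6d (1.79, SE 0.045) and 20d (2.04, SE 0.045). PH02Gene01333 averaged 0.490 ± 0.181 at 0d, 1.92 ± 0.0694 at 2d, 5.25 ± 0.317 at 6d and 8.28 ± 0.780 by 20d FPKM and rose at each stored time, with 4.38 at 20d. PH02Gene04226 averaged 6.66 ± 0.561 at 0d, 4.21 ± 0.471 at 2d, 2.63 ± 0.283 at 6d and 3.70 ± 0.556 by 20d FPKM and fell at 6d (-1.16, SE 0.11).

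Monosaccharide-sensing proteins load hexoses into the vacuole in Arabidopsis. Of 12 genes 3 were tested, of which 1 rose at 20d, and each of the 3 had its lowest mean at 2d. PH02Gene38019 averaged 20.1 ± 0.815 at 0d, 10.9 ± 0.456 at 2d, 19.6 ± 0.754 at 6d and 16.9 ± 0.271 by 20d FPKM, and its changes of -0.63, 0.14 and 0.06 stayed within the size limit. PH02Gene29520 had 7.54, 7.14, 6.98 and 6.92 at 2d, against 12.5, 11.8, 12.6 and 13.6 at 0d FPKM, a change of -0.57 (SE 0.051). PH02Gene45286 rose at 20d (log2 change 1.09, SE 0.047, edgeR adjusted p = 6.69e-17), which becomes 0.77 with total counts and 0.95 with upper-quartile factors.

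**Figure D5:**
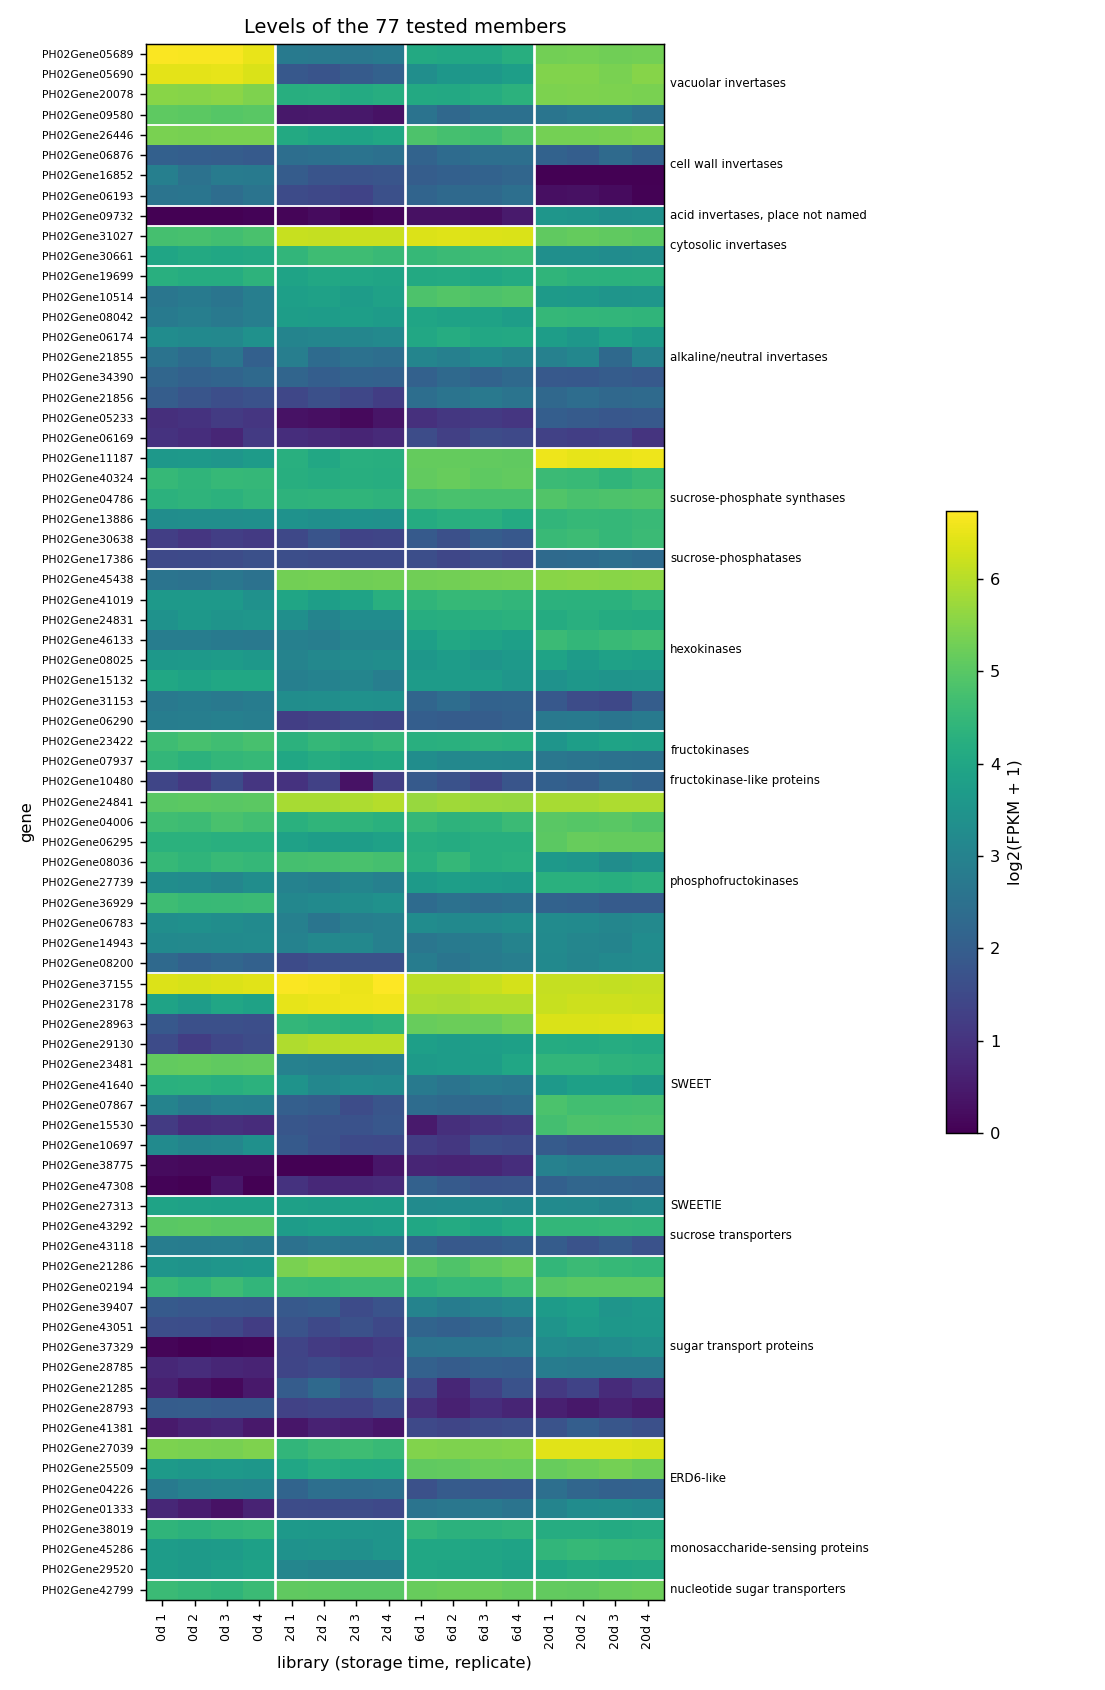
Levels of the 77 tested genes as log2(FPKM + 1) (colour scale), with 1 column per library in the order of storage time and 1 row per gene, grouped by class with the highest mean first in each class. The vacuolar invertases are dark at 2d, and the 4 libraries of a group look alike in nearly every row.

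Of the 132 genes that were not tested, 11 reached a mean of 1 FPKM in a group. Of these 8 were highest at 0d and 3 at 6d. The same count was not made over all untested genes, and of all tested genes 43.2% had their highest mean at 0d. SWEET2a PH02Gene46766, named here after its values were seen, averaged 3.18 ± 0.602 at 0d, 0.0486 ± 0.0973 at 2d, 0.0551 ± 0.0637 at 6d and 0.0183 ± 0.0366 by 20d FPKM, the opposite course to the strong gene of that name. SWEET11 PH02Gene43386 and SWEET16 PH02Gene26486, chosen in the same way, averaged 0.0112 and 0.0822 FPKM at 20d, against 2.33 and 2.37 FPKM at 0d.

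Other lists of sucrose metabolism and sugar transport are set beside the share of all tested genes, of which 13.1% rose and 18.1% fell at 2d, 16.8% and 21.6% at 6d, and 19.5% and 24.5% at 20d. Of 10 tested sucrose synthases, which cleave sucrose with UDP, 1 rose and 5 fell at 2d, 0 rose and 6 fell at 6d, and 0 rose and 9 fell at 20d, with medians of -1.12, -1.22 and -2.20. A further list holds phosphoglucomutases, glucose-6-phosphate isomerases and UTP--glucose-1-phosphate uridylyltransferases, the last of which make UDP-glucose. Of its 9 tested genes, 0 rose at these times, and 1, 2 and 5 fell. None of the 13 invertase inhibitor genes was expressed enough to be tested. Of 19 tested plastid, inositol, polyol, nucleotide-sugar and HEX6-like hexose carriers, 4, 4 and 7 rose and 7, 6 and 2 fell, and the 2 tested HEX6-like genes are among the risers at each time. Of 10 tested plasma membrane proton pumps 1, 1 and 3 rose and 1, 2 and 2 fell at 2d, 6d and 20d. Of 34 tested vacuolar proton pump genes 1, 1 and 1 rose and 2, 1 and 5 fell.

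Marker lists of cell types were summed per library and counted in the same way. Of 15 chlorophyll-binding genes, 9 were tested and 9, 9 and 8 fell at 2d, 6d and 20d. They summed to 304 to 319 FPKM per library at 0d, 13.3 to 13.8 at 2d, 14.5 to 17.03 at 6d and 1.602 to 2.497 at 20d. Of 31 markers of dividing cells 11 were tested, and their sum was 82.5 to 86.4 FPKM at 0d, 103 to 106 at 2d, 179 to 192 at 6d and 107 to 118 at 20d. Of the 11, 3, 7 and 1 rose and 0, 1 and 4 fell at 2d, 6d and 20d, so at 20d the sum was higher than at 0d while more of the genes had fallen than risen. The 19 phloem markers, 12 tested, summed to 144 to 150 FPKM at 0d, 184 to 190 at 2d, 104 to 111 at 6d and 92.9 to 95.1 at 20d, and 1, 3 and 2 rose while 1, 4 and 5 fell. The 107 epidermis markers, 25 tested, summed to 201 to 216 FPKM at 0d, 117 to 120.1 at 2d, 112 to 118 at 6d and 261 to 271 at 20d. Of these 25, 2, 3 and 9 rose and 11, 12 and 10 fell, so the higher sum at 20d does not hold gene by gene. The 8 vessel and fibre markers summed to 41.3 to 51.4 FPKM at 0d, 36.2 to 40.8 at 2d, 12.4 to 16.3 at 6d and 33.2 to 36.4 at 20d, with the 6d libraries below all others, and the 1 tested gene fell at 6d alone. At 0 in every library were 3 chlorophyll-binding genes, 9 of dividing cells, 2 of phloem, 31 of epidermis and 0 of vessels and fibres. The part of such shifts in the changes of invertases, kinases and carriers was not tested.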

How the data were processed

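The 16 libraries come from 4 storage times with 4 replicates each. The authors deposited 1 table of 50936 genes with FPKM and count columns per library, per the file headers. The deposited FPKM values have 0 written as 0.0001, which was read as 0. The deposited counts are treated as estimated counts, which need not be whole: they are whole numbers, needed no rounding, and rise in steps of about 4 per fragment. How the counts were made, with which aligner, counting tool and genome build, is not given in the sources used here. Names of genes are the descriptions in the deposited table, given for 49347 genes.

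Members were found by their descriptions. Members, gene lists and classes were chosen with earlier results of these data known, and the split of invertases by place in the cell was made after the descriptions were read. Class sums are over all genes of a class, tested or not. Neighbours lie within 100 kb on a scaffold.

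Counts were fitted in edgeR 4.0.16 (R 4.3.3) with TMM factors, 1 coefficient per storage time and the robust quasi-likelihood F test, for the 24944 genes that averaged 1 FPKM or more. Benjamini-Hochberg adjustment was over all of them, and a call needs an adjusted p below 0.05 and a log2 change of at least 1. The fit was also run on simulated counts with known changes. The labels call the replicates biological, and the repeats were stored as batches of 30 shoots, apart from 0d, which had no storage. Each library pools 6 shoots, so p-values measure the spread between such pools, not between single shoots. A group with 0 counts has a floor of 3 fragments (12 counts), and intervals are exact (Clopper-Pearson) at 95%. Both cover counting error only.

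The genes named are, in each family, the 2 with the highest mean FPKM, for each time against 0d the called member with the largest rise and that with the largest fall among those with at least 5 FPKM, and every tested member of a family with 3 or fewer. Of phosphofructokinases and the UDP-sugar transporter only the strongest are named. The rule gives 36 genes, and the other 35 named were chosen after their values were seen. No sequences are printed. Alternatives were other scaling factors, DESeq2 1.42.0, limma 3.58.1 on log2(FPKM + 1) and log2(FPKM + 0.1), other filters and limits, leaving out each library, leaving out the stray families, and the replicate number as a block.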

Additional observations from a re-analysis of the deposited data

Results flagged for a closer look

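In groups of 4 libraries, 1 library stood apart from the other 3 in 21 of 360 groups of values checked, by a gap wider than Dixon's critical share of the group's range. Chance alone flags about 1 in 20 groups, or 5%.

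At 0d, replicate 4 had a vacuolar invertase sum of 247.1 FPKM, below 266 to 270 in the other libraries, a fructokinase sum of 48.3 FPKM, above 45.2 to 45.7, and 9.67 FPKM of hexokinase-3 PH02Gene41019, below 11.3 to 11.4. The same library held 0.0391 FPKM of beta-fructofuranosidase 1 PH02Gene09732, and of the sum of acid invertases with no place named, where the others held 0. Replicate 3 at 0d had 4.29 FPKM of cell wall invertase PH02Gene06193, below 5.03 to 5.10, and 0.332 FPKM of SWEET14-like PH02Gene47308, above 0 to 0.0538. Replicate 2 at 0d had 14.0 FPKM of hexokinase-6 PH02Gene15132, below 15.2 to 15.3. Replicate 1 at 0d had 2.63 FPKM of SWEET6b PH02Gene28963, above 2.08 to 2.12, and 1.78 FPKM of SWEET11 PH02Gene43386, below 2.48 to 2.54.

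At 2d, replicate 2 had 15.4 FPKM of sucrose-phosphate synthase 3 PH02Gene11187, below 17.8 to 18.2, and 0.195 FPKM of SWEET2a PH02Gene46766, where the others held 0. Replicate 4 at 2d had 0.319 FPKM of SWEET15 PH02Gene38775, above 0 to 0.0403. At 6d, replicate 1 had 8.94 FPKM of fructokinase-6 PH02Gene07937, above 7.87 to 8.04.

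At 20d, replicate 1 was low for SWEET1b PH02Gene15530, with 25.3 FPKM below 27.7 to 27.8, and for sugar transport protein 5-like PH02Gene02194, with 30.5 FPKM below 32.1 to 32.2. It was high for SWEET15 PH02Gene38775, with 6.75 FPKM above 6.25 to 6.27. Replicate 3 had 4.51 FPKM of sucrose-phosphatase PH02Gene17386, the 1 gene of its class and so also its sum, above 4.01 to 4.10. For SWEET11 PH02Gene43386, replicate 4 held 0.0449 FPKM and the others 0, and for SWEET2a PH02Gene46766, replicate 2 held 0.0732 FPKM and the others 0.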

How the results depend on the processing

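Of 160 called changes of single members, none changed direction in 2816 refits, and 127 refits, 21 of them with a library left out, took a change under the limits. In the order 2d, 6d and 20d against 0d, 6d against 2d and 20d against 6d, the counts reported were 16, 27, 36, 19 and 17 higher and 13, 11, 9, 7 and 5 lower. By adjusted p alone, 33 and 44 were higher at 2d and 6d against 0d, and 47 and 47 in the later steps, while 27, 22, 20, 21 and 15 were lower. With a log2 change of at least 2, counts were 10, 13, 21, 4 and 6 higher and 4, 5, 5, 1 and 2 lower. With every counted gene fitted, 28, 23, 22, 11 and 14 were lower and 29 were higher at 6d against 2d. With edgeR's filterByExpr, 24, 20, 16, 11 and 12 were lower. With a mean of at least 5 FPKM, 10, 13, 20, 6 and 11 were higher, and 5 and 3 were lower at 20d against 0d and against 6d. Under limma on log2(FPKM + 1), 9, 16 and 23 were higher against 0d and 2 were lower at 6d against 2d. Over all 4 times, 59 members passed, 38 with the filter of 5 FPKM and 34 with the limit of 2. RLE factors, upper-quartile factors and DESeq2 left every one of these counts within 1.5 times the reported count.

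The median change of members at 2d, 0.037, has no firm sign: it was -0.21 with total counts, -0.053 with upper-quartile factors, -0.13 and -0.19 under limma with a pseudocount of 1 and 0.1, and -0.041 with at least 5 FPKM. It lay between -0.023 and 0.10 with single libraries left out. Total counts also moved the share of higher among all calls over the whole table, to 28.8%, 33.9% and 31.2% at 2d, 6d and 20d against 0d, where the TMM fit had 42.0%, 43.7% and 44.3%.

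With single libraries left out, 16 to 16, 27 to 28, 34 to 37, 17 to 20 and 17 to 18 members were higher and 12 to 14, 11 to 11, 8 to 9, 6 to 7 and 5 to 5 lower in the same order, and 59 to 61 passed over all times. Libraries with the same replicate number did not deviate together: their correlation ran from -0.235 to 0.134 (median -0.019), against -0.236 to 0.294 for other pairs, so the numbers are not taken as pairs. A fit with the replicate number as a block gave 16 higher and 13 lower at 2d, 27 and 11 at 6d and 36 and 9 at 20d, as without it. Depth limits the genes that are near 0 at harvest, such as PH02Gene09732, PH02Gene37329, PH02Gene47308 and PH02Gene38775, whose changes rest on a few fragments.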
